A study of Mus musculus with 2 samples.

Results

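Malat1, Neat1, Gas5, Snhg1, Snhg8, Rmrp, Rpph1, Rn45s and Terc are noncoding RNAs of the nucleus and nucleolus, and their levels were examined in the whole uterus of pregnant mice. The 9 genes were taken by symbol from the 22740 genes of the expression table, of which 2295 carry an NR_ identifier (noncoding transcripts) and 20445 an NM_ identifier (protein-coding transcripts). They were chosen by name as abundant or well-known noncoding RNAs, with their RPKM in these same libraries in view, so their levels are a description and carry no test. The difference between the libraries did not enter the choice. All 9 had reads in both libraries, and no filter on low values removed any of them.

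RNA was sequenced from the uteri of 2 C57BL/6 mice on day 4 of pregnancy, with 1 library for each animal. Both libraries form 1 group, whose labels give no treatment and no altered allele, and they are named uterus 1 and uterus 2 by their title numbers. The submitters state that the RNA was purified by its poly-A tail before sequencing. Values are the authors' RPKM, a gene's reads divided by transcript length and by library size. This division does not correct for how much of each RNA was kept by the poly-A purification. Levels of RNAs with and without a tail are therefore given as measured, and their true order was not tested.

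Most RNA polymerase II transcripts, long noncoding RNAs and small nucleolar RNA host genes among them, end at a cleavage site downstream of an AATAAA or ATTAAA hexamer, where a poly-A tail is added. Malat1 is an exception in that its mature end is cut by RNase P and held by a triple helix, although a conventional signal lies downstream. RNA polymerase III transcripts such as the RNAs of RNase P and RNase MRP stop at a run of T, the ribosomal precursor is made by RNA polymerase I, and telomerase RNA is trimmed to an end without a long tail. Small nucleolar RNA host genes carry the small RNAs in their introns, and the spliced remainder of many of them is broken down by nonsense-mediated decay.

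The 3′ ends are shown because the hexamer that directs polyadenylation, where a gene has one, lies near them. Each line below gives the last 50 bases of the deposited transcript span on the mouse build NCBIM37 (mm9), read 5′ to 3′ on the transcribed strand, with AATAAA and ATTAAA in capitals.
Malat1, chr19:5795690-5795739, minus strand: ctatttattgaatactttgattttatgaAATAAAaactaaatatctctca
Neat1, chr19:5842302-5842351, minus strand: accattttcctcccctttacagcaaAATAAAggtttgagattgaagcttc
Gas5, chr1:162968619-162968668, plus strand: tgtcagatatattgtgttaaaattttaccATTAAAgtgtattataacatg
Snhg1, chr19:8800767-8800816, plus strand: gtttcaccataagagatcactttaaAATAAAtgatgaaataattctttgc
Snhg8, chr3:123210470-123210519, minus strand: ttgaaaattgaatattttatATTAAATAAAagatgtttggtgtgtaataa
Rmrp, chr4:43505657-43505706, minus strand: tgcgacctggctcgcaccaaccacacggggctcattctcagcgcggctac
Rpph1, chr14:51427122-51427171, minus strand: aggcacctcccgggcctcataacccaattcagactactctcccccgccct
Rn45s, chr17:39985725-39985774, plus strand: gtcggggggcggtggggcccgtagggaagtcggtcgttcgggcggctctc
Terc, chr3:96218360-96218409, minus strand: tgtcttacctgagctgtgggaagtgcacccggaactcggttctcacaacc
AATAAA or ATTAAA, searched on the transcribed strand, was present in 5 of the 5 RNAs from Malat1 to Snhg8 and in 0 of the 4 from Rmrp to Terc. The hexamer began 21 to 30 bases before the 3′ end, and Snhg8 held an ATTAAA and an AATAAA that overlap. Of 22666 rows whose ends could be read, 68.8% held either hexamer in the last 50 bases, as did 60.8% of the 2286 NR_ rows among them. The 5 RNAs are called the RNAs with a poly-A signal below, and the other 4 the RNAs without one. A match describes letters in this window and shows neither a tail nor its absence.

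The 20 bases that follow the 3′ end show where RNA polymerase III would stop, with each run of at least 4 T in capitals.
Rmrp, chr4:43505637-43505656, minus strand: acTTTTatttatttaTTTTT
Rpph1, chr14:51427102-51427121, minus strand: cTTTTTTgatcgagatcctt
Rn45s, chr17:39985775-39985794, plus strand: aaaaaaaataccaaaaaaaa
Terc, chr3:96218340-96218359, minus strand: cccattcccgctggggaaat
TTTT on the transcribed strand followed Rmrp and Rpph1, and it also followed Gas5, whereas the other 6 genes lacked it in these 20 bases. It followed 22.4% of the 22666 rows. The genome after the end of Rn45s was rich in A, with 17 of 20 bases, and 280 rows, or 1.24% of all, had as many.

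Rmrp and Rpph1 also had the octamer ATGCAAAT or its reverse complement ATTTGCAT before their start, a motif known from the promoters of small nuclear RNA genes. The stretch from 250 bases before the start of Rmrp, and the whole gap of 174 bases between Rpph1 and its neighbour, are given with the octamer in capitals.
Rmrp, chr4:43505932-43506181, minus strand: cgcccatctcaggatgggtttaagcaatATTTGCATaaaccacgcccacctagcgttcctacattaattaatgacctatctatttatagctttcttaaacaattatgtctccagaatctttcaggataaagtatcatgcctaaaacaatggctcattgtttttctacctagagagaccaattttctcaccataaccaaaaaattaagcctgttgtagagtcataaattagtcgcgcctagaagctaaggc
Rpph1, chr14:51427447-51427620, minus strand: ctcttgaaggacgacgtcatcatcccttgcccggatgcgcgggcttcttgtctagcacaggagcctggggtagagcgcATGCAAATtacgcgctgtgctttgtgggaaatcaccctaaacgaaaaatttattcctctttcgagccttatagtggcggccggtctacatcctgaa
The octamer began 222 bases before the start of Rmrp and 96 bases before the start of Rpph1. Either form was found in the 250 bases before 365 of 22666 rows, or 1.61%, and before none of the other 7 genes.

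The 5′ ends of the small nucleolar RNA host genes are shown because genes of this class often start with a run of pyrimidines, and that of Terc because it holds the template for telomere repeats. Leading runs of C and T, and the CTAACCC of Terc, are in capitals.
Gas5, chr1:162965297-162965326, plus strand: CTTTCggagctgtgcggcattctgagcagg
Snhg1, chr19:8797977-8798006, plus strand: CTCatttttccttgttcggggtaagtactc
Snhg8, chr3:123211225-123211254, minus strand: CTCTTTggctgcgatccgcctacgagtatg
Terc, chr3:96218727-96218756, minus strand: acCTAACCCtgattttcattagctgtgggt
The run was 5 bases long in Gas5, 3 in Snhg1 and 6 in Snhg8, and 0 in the other 6 genes. A run of at least 3 opened 8.78% of all rows and a run of at least 5 opened 3.79%. CTAACCC, searched on the transcribed strand, began at base 3 of Terc and occurred in the first 30 bases of 15 of 22666 rows, or 0.0662%.

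Whole reads were recovered from the RPKM values, 3710223 for uterus 1 and 4121772 for uterus 2 in all. The values of the 9 RNAs rested on as few as 15 reads (Terc) and as many as 110661 (Malat1) in a library. Uterine markers were present, with Hoxa10, Hoxa11, Pgr and Esr1 at means of 72.0 to 114 RPKM, and so were markers of epithelium, stroma, smooth muscle, endothelium and leukocytes (14.7 to 1017 RPKM). The fat markers Adipoq and Plin1 reached at most 0.0613 RPKM on average. Summed markers of oviduct and ovary (Ovgp1 and Star) stood at 8.71 and 13.2 RPKM in uterus 1 and uterus 2. Those of epithelium stood at 193 and 231, and those of stroma at 2088 and 1950. Of the stroma markers, Col1a1 was lower in uterus 2 (1184 and 851 RPKM). Vim (447 and 522) and Dcn (456 and 578) were higher. Of the epithelium markers, Cdh1 was lower (26.4 and 24.9 RPKM), and Krt8, Krt18 and Epcam were higher. The part of these tissues in the differences given below was not tested. In bulk tissue, fewer cells of a type and less RNA per cell cannot be told apart.

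The 9 RNAs spanned more than 3 powers of 10, from Terc at 9.69 ± 1.16 RPKM to Rmrp at 23896 ± 2865 RPKM (mean ± SD, n = 2 for each mean given here). Rmrp, Rpph1, Malat1 and Rn45s held ranks 1, 2, 4 and 5 of all 22740 genes by mean RPKM, and only Eef1a1, a translation elongation factor at 5930 ± 356 RPKM, stood among them. Snhg1 ranked 510, Neat1 1002, Gas5 1262, Snhg8 2484 and Terc 7445. For scale, the median over the 13280 genes with at least 1 RPKM in both uteri was 11.4 RPKM. Of the NR_ rows, 686, or 29.9%, had at least 1 RPKM in both uteri. In the order Rmrp, Rpph1, Malat1, Rn45s, Snhg1, Neat1, Gas5, Snhg8, Terc, each pair of neighbours had ranges over the 2 uteri that did not overlap, although Neat1 and Gas5 came within 0.1 RPKM of each other in uterus 2.

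**Figure D1:**
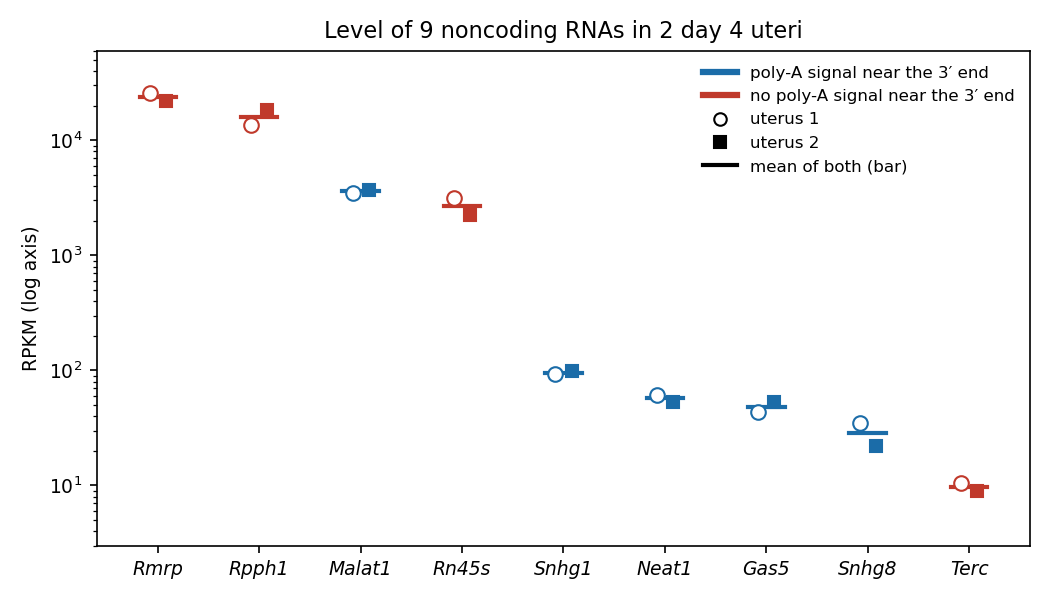
RPKM of the 9 noncoding RNAs in uterus 1 and uterus 2 on a log axis, with 1 point per library, ordered by mean level. Rmrp, Rpph1, Malat1 and Rn45s lie at 2248 RPKM or more in both uteri, and the other 5 at 98.2 RPKM or less.

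Malat1, a nuclear RNA of the splicing-factor bodies called nuclear speckles, lies at chr19:5795690-5802671 on the minus strand and had 3459 RPKM in uterus 1 and 3724 RPKM in uterus 2. Both values are high and close together. Its 92589 and 110661 reads were 2.50% and 2.68% of all recovered reads, the most of any gene. Neat1, the scaffold of paraspeckles, lies 39630 bases away on the same strand at chr19:5842302-5845478. It had 61.2 and 53.0 RPKM, from 745 and 716 reads. The lower value was that of uterus 2. The ratio of Malat1 to Neat1 was 56.6 in uterus 1 and 70.3 in uterus 2. The length behind the Neat1 value is 3177 bases, whereas the longest GENCODE transcript of the gene has 20771, and the level of that longer form was not analysed here.

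Snhg1 was the highest of the small nucleolar RNA host genes examined and lies at chr19:8797977-8800816 on the plus strand. It had 93.1 and 98.2 RPKM, the closest pair of values among the 9 RNAs on the log2 scale. The length used for it was a multiple of 476 bases, taken here as 5 such steps, so its reads lie between 170 and 850 in uterus 1 and between 199 and 995 in uterus 2. Gas5, named for its accumulation in growth-arrested cells, lies at chr1:162965297-162968668 on the plus strand. It had 43.2 and 52.9 RPKM from 423 and 575 reads, and uterus 2 was the higher. Snhg8 lies at chr3:123210470-123211254 on the minus strand. It had 35.2 and 21.8 RPKM from 106 and 73 reads, the widest gap of the 9 RNAs on the log2 scale. The ratio of Gas5 to Snhg8 was accordingly 1.23 in uterus 1 and 2.42 in uterus 2.

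The level of Gas5 depends on the transcript it is divided by. The RPKM rests on 2554 bases, while 23 of its 25 GENCODE transcripts are shorter than 1100 bases and their median is 629. On that median length the same reads gave 175 and 215 RPKM, which would put Gas5 above Snhg1. This length was chosen after the values were seen.

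Rmrp, the RNA of RNase MRP, which cuts the ribosomal precursor, lies at chr4:43505657-43505931 on the minus strand. It was the highest RNA of the table, with 25922 RPKM in uterus 1 and 21870 RPKM in uterus 2. Rpph1, the RNA of RNase P, which removes the leader of transfer RNA precursors and also cuts the end of Malat1, lies at chr14:51427122-51427446 on the minus strand and had 13604 and 18482 RPKM. Rmrp was higher in uterus 1 and Rpph1 in uterus 2, so that the ratio of Rmrp to Rpph1 was 1.91 in uterus 1 and 1.18 in uterus 2. These genes are short, at 275 and 325 bases, and their reads (27332 and 25597 for Rmrp, 16952 and 25565 for Rpph1) placed them at ranks 5 and 7 by reads.

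Rn45s, the row for the ribosomal RNA precursor, spans chr17:39979942-39985774 on the plus strand. It had 3145 RPKM in uterus 1 and 2248 RPKM in uterus 2, from 70345 and 55801 reads, the second-most of any gene. Its order against Malat1 was the same in both uteri, with Malat1 higher by 1.10 times in uterus 1 and 1.66 times in uterus 2. Ribosomal sequence is repeated in the genome. Further matches of at least 100 bases and 90% identity numbered 8, the longest of 908 bases at 98.0%. The sources used here do not give how the authors treated reads with several matches. Whether reads over the 5833 bases of the Rn45s row came from the precursor or from RNA processed from it was not tested.

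Terc, the RNA template of telomerase, lies at chr3:96218360-96218756 on the minus strand and was the lowest of the 9 RNAs. It had 10.5 RPKM from 16 reads in uterus 1 and 8.88 RPKM from 15 reads in uterus 2. The exact 95% Poisson intervals were 6.01 to 17.1 and 4.97 to 14.6 RPKM, so the values cannot be separated at this depth. Rmrp exceeded Terc 2466 times in uterus 1 and 2464 times in uterus 2. The RNAs without a poly-A signal therefore held both the highest and the lowest level of the 9.

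**Figure D2:**
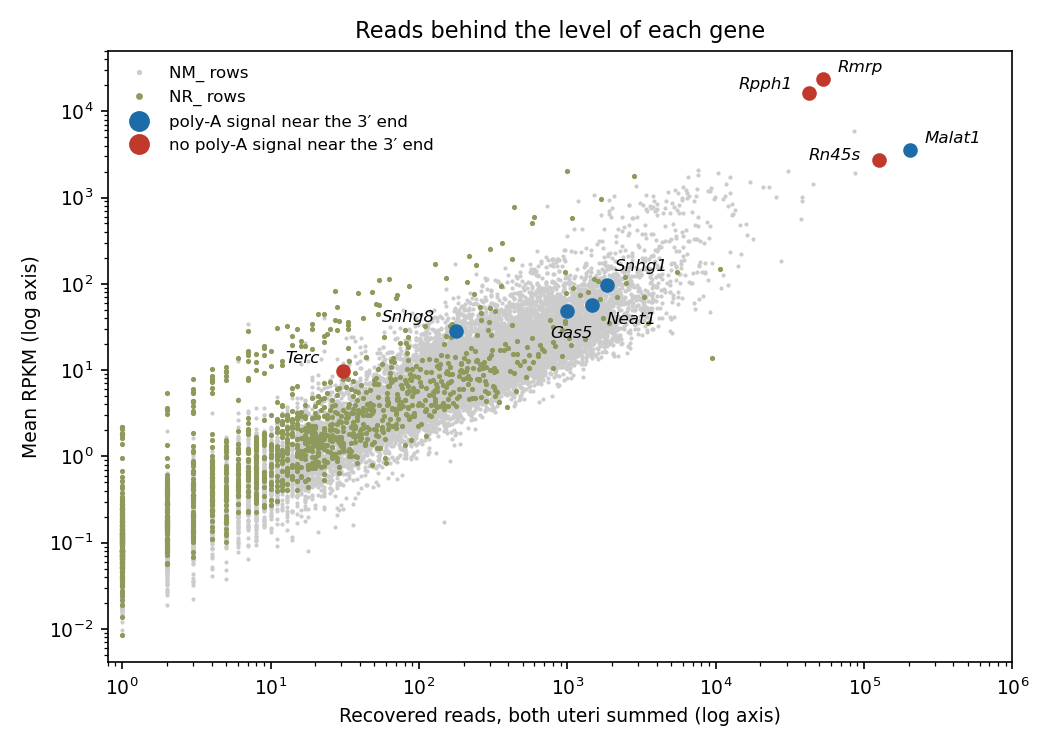
Mean RPKM against recovered reads summed over both uteri, with 1 point per gene on log axes, for NM_ rows, NR_ rows and the 9 noncoding RNAs. Rmrp and Rpph1 lie high above other genes with as many reads because they are short, while Malat1 and Rn45s have the most reads of all; Snhg1 is drawn at its largest possible reads.

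Summed by class, the 5 RNAs with a poly-A signal had 3691 RPKM in uterus 1 and 3950 RPKM in uterus 2, nearly all of it from Malat1. The 4 RNAs without a signal summed to 42682 and 42608 RPKM, of which Rmrp and Rpph1 gave most. The second sum differed by less between the uteri than any of its 3 largest members did, with Rmrp and Rn45s lower and Rpph1 higher in uterus 2. Per length the RNAs without a signal thus had 11.6 and 10.8 times the RPKM of the others, with no correction for the poly-A purification. By reads the classes were closer: RNAs with a signal took 2.55% and 2.74% of recovered reads, and RNAs without one took 3.09% and 2.60%. Without Rn45s the latter took 1.19% and 1.24%. With Rn45s, the class with more reads was the RNAs without a signal in uterus 1 and the RNAs with a signal in uterus 2. Together the 9 RNAs held 11.0% of the summed RPKM in each uterus and 5.64% and 5.34% of the reads. Among the NR_ rows alone they held 76.1% and 76.0% of the reads. These sums were fixed by the choice of genes and carry no test, and how RNAs without a tail came to be sequenced was not tested.

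The classes also differed in base composition over their genomic spans. The RNAs with a signal had 40.8% to 51.3% G and C, and the RNAs without one 63.6% to 66.8%. The longest run of A was 12 bases in Malat1, 6 in Rn45s, 5 in Neat1, Gas5, Snhg1, Snhg8 and Terc, 3 in Rmrp and 2 in Rpph1.

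The uteri were compared gene by gene with a two-sided exact binomial test on the recovered reads, with Benjamini-Hochberg adjustment over 15091 genes that had at least 6 reads in sum. The test sets 2 libraries of 1 group against each other by counting error alone, and compares no conditions. At an adjusted p under 0.05 it called 6 of the 9 RNAs (5 with the libraries scaled by their median ratio), against 4.48% of all genes tested (676 genes). Malat1, Gas5 and Rpph1 were higher in uterus 2, as were 2.05% of all genes, and Rmrp, Rn45s and Snhg8 were lower, as were 2.43%. The test calls small differences where reads are many: of 38 genes with at least 10000 reads, 76.3% were called, and Malat1, Rmrp, Rpph1 and Rn45s are 4 of these. None of the 9 RNAs differed by 2-fold. Of the 13647 genes whose mean reached 1 RPKM, 355, or 2.6%, did so, and 48 genes were left when the mean had to reach 10 RPKM. A set of 9 RNAs is too small to be read against such a share.

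Each ratio was therefore also set beside the 200 genes nearest to it in reads. The ratio is the log2 of uterus 2 over uterus 1, with 0.1 RPKM added to each, a scale that understates the change of low genes, and the intervals are exact 95% intervals of the read ratio. Rn45s had a ratio of −0.48 (−0.50 to −0.47), with an adjusted p of the exact binomial test below the smallest number that could be represented, and 1 of its 200 neighbours in reads lay as far apart. Rpph1 had a ratio of 0.44 (0.41 to 0.47) with an adjusted p of 3.4e-210, and 5 of 200 lay as far apart. Snhg8 had a ratio of −0.69 (−1.14 to −0.25) with an adjusted p of 0.0394, and 2 of 200 lay as far apart. These 3 RNAs stood well outside the central 90% of their neighbours.

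Gas5 had a ratio of 0.29 (0.11 to 0.48) with an adjusted p of 0.0376 in the same exact binomial test, and 17 of 200 neighbours lay as far apart. With the libraries scaled by their median ratio the Gas5 call was lost (0.28, adjusted p 0.0507 in the exact binomial test), which left 5 of the 9 RNAs called. Rmrp had a ratio of −0.25 (−0.27 to −0.22) with an adjusted p of 9.6e-82, and 26 of 200 lay as far apart. Both sat just beyond the central 90%, which ran from −0.30 to 0.25 for Gas5 and from −0.23 to 0.27 for Rmrp. Malat1 had a ratio of 0.11 (0.09 to 0.12) with an adjusted p of 1.2e-58, and 102 of 200 lay as far apart. The Malat1 difference was thus called and yet as small as that of the typical gene with many reads.

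For the remaining 3 RNAs the exact binomial test made no call. Neat1 had a ratio of −0.21 (−0.36 to −0.06) and an adjusted p of 0.0981. Snhg1 had a ratio of 0.08 and an adjusted p of 0.693, with an interval of −0.23 to 0.38 when its reads are taken at their smallest. Terc had a ratio of −0.24 (−1.36 to 0.87) and an adjusted p of 0.961, so that a 2-fold lower level in uterus 2 lay within its interval. Over 7167 genes with at least 100 reads in each uterus, the spread of the ratios exceeded counting error by the equivalent of 6.37% per library.

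**Figure D3:**
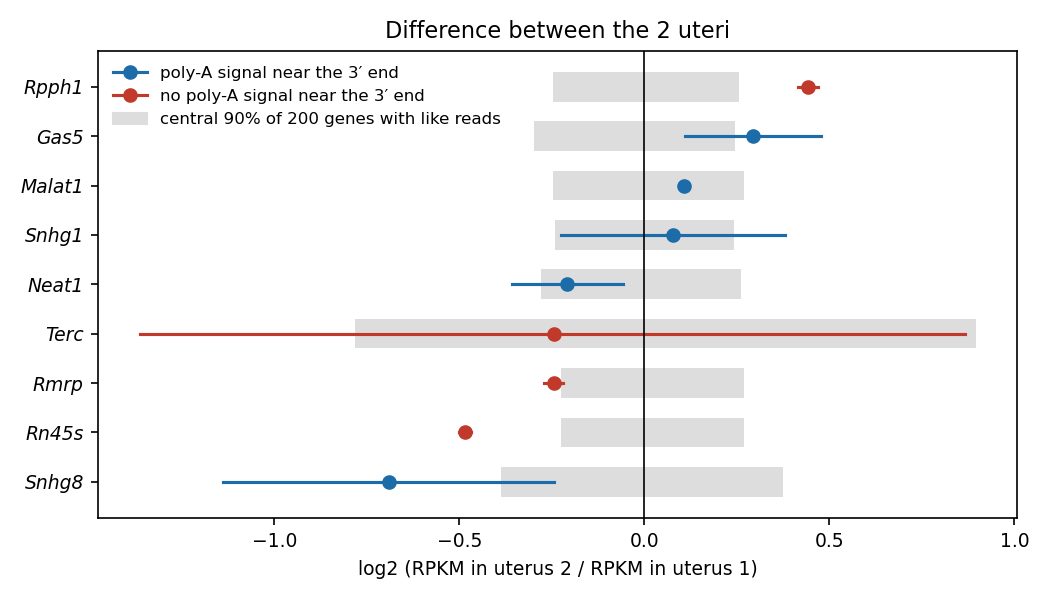
Log2 ratio of RPKM, uterus 2 over uterus 1, for the 9 noncoding RNAs, with the exact 95% counting interval as a bar and the central 90% of the 200 genes nearest in reads as a grey band. Rn45s and Snhg8 fall below their bands and Rpph1 above, Gas5 and Rmrp sit just beyond an edge, and Malat1, Neat1, Snhg1 and Terc lie inside.

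Small nucleolar RNAs that lie inside the host genes were listed beside them. GENCODE places 9 small nucleolar RNA genes inside Gas5, 8 inside Snhg1 and 1 inside Snhg8, of which the expression table had 1 each. Snord47 inside Gas5 had 52.2 and 54.2 RPKM, near the level of Gas5 itself, from 13 and 15 reads. Snord22 inside Snhg1 had 946 RPKM in uterus 1 and 257 RPKM in uterus 2, with a log2 ratio of −1.88 and an adjusted p of 1.9e-45 in the exact binomial test, from 457 and 138 reads. Snhg1 itself, in the same libraries, did not pass that test. Snora24 inside Snhg8 was listed at 0 in both, and the length behind the Snhg8 value, 785 bases, equals its whole span, with no intron left out. Reads of a small nucleolar RNA and of the unspliced host around it cannot be told apart in these values.

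The nearest gene that starts back to back with an RNA of the set was far lower in each case. Ccdc107, 305 bases from the start of Rmrp, had 19.2 and 27.7 RPKM, so Rmrp stood 1018 times above it. Parp2, 174 bases from the start of Rpph1, had 19.4 and 23.8 RPKM, and Rpph1 stood 743 times above it. Zbtb37, 906 bases from the start of Gas5, had 7.52 and 8.11 RPKM, 6.15 times below Gas5. None of these 3 neighbours was called different between the uteri (adjusted p of 0.256, 0.417 and 0.899 in the exact binomial test). GENCODE also places genes on the other strand over Malat1 (Gm20417), Rmrp (Ccdc107) and Rn45s (AY036118), and reads of such pairs cannot be told apart unless strand was used, which is not given in the sources used here.

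Related noncoding RNAs were taken from lists that were chosen with earlier results of these libraries known. Of 18 nuclear long noncoding RNAs measured, 16 had at least 1 RPKM in both uteri, and the median of the list was 12.1 and 11.6 RPKM. Malat1 was the highest and Tsix, the antisense partner of Xist, the lowest at 0.0606 and 0.0546 RPKM. The exact binomial test called 2 of the 17 tested higher in uterus 2 and 1 lower, beside 2.05% and 2.43% of all genes tested. Besides Malat1, Kcnq1ot1, the RNA of an imprinted domain, was higher (13.2 and 14.6 RPKM, adjusted p 0.000128). Xist, which coats the inactive X chromosome, was lower (166 and 130 RPKM, log2 ratio −0.36, adjusted p 3.0e-34). The median log2 ratio of the list was −0.01, beside 0.00 over all genes whose mean reached 1 RPKM.

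Of 22 genes on the list of small nucleolar RNA hosts, 14 were measured. Of these, 13 had at least 1 RPKM in both uteri, and the medians were 21.7 and 20.3 RPKM. Snhg1 was the highest and Snhg11 the lowest at 0.578 and 0.481 RPKM. Gas5 and Snhg6 were called higher in uterus 2 and Snhg8 lower by the exact binomial test, of 13 tested, beside 2.05% and 2.43% of all genes tested. Snhg6 had 19.9 and 45.6 RPKM from 31 and 79 reads, a log2 ratio of 1.19 with an adjusted p of 0.00262. The hosts lay on both sides, with 7 higher and 6 lower values in uterus 2 among the 13 whose mean reached 1 RPKM, and a median log2 ratio of 0.03. That median is the ratio of Rab30, a protein-coding gene on the list whose standing as a host is uncertain.

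Of 10 structural RNAs without a poly-A tail, 9 had at least 1 RPKM in both uteri, and the list's median was 223 RPKM in uterus 1 and 89.1 RPKM in uterus 2. Rmrp was the highest. Bc1, a cytoplasmic RNA of neurons, was the lowest by mean, with 3.73 RPKM from 1 read in uterus 1 and a value of 0 in uterus 2. Rnu73b was lower in uterus 1, at 3.67 RPKM from 1 read. Scarna2, a guide RNA of Cajal bodies, came close to Rn45s with 2112 and 1930 RPKM. The exact binomial test called Rpph1 higher and 4 RNAs lower in uterus 2, of which Rmrp and Rn45s belong to the 9, where 2.05% of all genes tested were called higher and 2.43% lower. Rmrp, Rpph1 and Rn45s are among the genes with at least 10000 reads, of which 76.3% were called. Rnu12, the U12 RNA of the minor spliceosome, had 383 and 124 RPKM (log2 ratio −1.63, adjusted p 1.7e-17), and Vaultrc5, a vault RNA, had 46.1 and 12.9 RPKM (−1.83, adjusted p 2.2e-05). Terc, Rnu11, Scarna2 and Rnu73b did not pass the test (adjusted p of 0.302 to 0.961), and Bc1 had too few reads to be tested. The median log2 ratio of the list was −0.24, beside 0.00 over all genes whose mean reached 1 RPKM. That median lies between the ratios of Rmrp (−0.25) and Terc (−0.24), both among the 9 RNAs, and Terc had 16 and 15 reads. Only 10 of the 22 RNAs listed were measured, so the median does not describe the class.

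By median RPKM, the transcripts coding for the proteins that bind Rmrp and Rpph1 were 3 powers of 10 lower than these RNAs. No protein was measured, and the lists of protein genes here and below give transcript levels. Of 11 protein genes of RNase P and RNase MRP, 10 had at least 1 RPKM in both uteri, with medians of 13.2 and 11.7 RPKM. Rpp25l was the highest by mean at 20.8 and 16.0 RPKM, although Rpp21 was higher in uterus 2 at 17.4 RPKM. Rpp25, the paralogue of Rpp25l, was the lowest at 0.388 and 0.524 RPKM. The exact binomial test called 0 of the 10 that could be tested, a number too small to read against the 4.48% of all genes called, and the median log2 ratio was −0.31. The genes of telomerase and its H/ACA partner proteins had medians of 13.1 and 10.1 RPKM over 10 genes, near the RPKM of Terc. The exact binomial test called 0 of these 10, beside the same 4.48%. Nop10 was the highest at 55.2 and 58.5 RPKM. Tert, the catalytic subunit that works with Terc, was the lowest by mean at 5.10 and 4.32 RPKM, from 67 and 63 reads. Shq1 was lower in uterus 1, at 4.98 RPKM. The Tert values were below those of Terc in both uteri, but Terc rests on 16 and 15 reads. The order of Tert and Terc was not tested, and the poly-A purification is not corrected for.

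Among 23 genes of RNA polymerase I and of pre-ribosomal RNA processing, 22 had at least 1 RPKM in both uteri. These genes make and process the precursor for which the Rn45s row is named. Their medians were 31.2 and 26.7 RPKM, and the median log2 ratio was −0.08. The nucleolar chaperone Npm1 was the highest and was called higher in uterus 2 by the exact binomial test, at 378 and 461 RPKM (log2 ratio 0.29, adjusted p 1.1e-05). Nucleolin (Ncl) was called lower at 53.2 and 42.5 RPKM (−0.32, adjusted p 4.2e-08). Taf1a was listed at 0 in both uteri. These were 1 gene in each direction of 22 tested, where 2.05% of all genes tested were called higher and 2.43% lower.

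Transcripts of the paraspeckle proteins, the partners of Neat1, were all detected, with medians of 45.9 and 37.4 RPKM over 16 genes. Hnrnpk was the highest at 268 and 263 RPKM and Zc3h6 the lowest at 2.44 and 2.82 RPKM. Sfpq and Nono, which are needed to form paraspeckles, had 96.2 and 99.6 RPKM and 117 and 137 RPKM. Neither was called between the uteri by the exact binomial test (adjusted p of 0.773 and 0.320), and the median log2 ratio of the list was 0.01. Genes of nuclear speckle proteins, found in the bodies where Malat1 resides, had medians of 73.0 and 77.2 RPKM over 13 genes. Their means ran from 28.4 RPKM for Srrm1 to 153 RPKM for Srsf5. Sf3b1 was called higher (81.0 and 89.2 RPKM, adjusted p 0.0402) and the scaffold Srrm2 lower (86.3 and 74.1 RPKM, adjusted p 1.9e-06) in uterus 2, of 13 tested, beside 2.05% and 2.43% of all genes tested.

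Nonsense-mediated decay factors, which act on spliced host transcripts such as Gas5, were detected for 14 of 14 genes. The median of the list was 19.8 ± 0.183 RPKM. By mean, Smg9 was the lowest at 6.43 and 6.21 RPKM. The highest by mean was Eif4a3, a core protein of the exon junction complex, at 60.1 and 50.4 RPKM. In uterus 2, Magoh (58.7 RPKM) stood above Eif4a3, and Smg8 (6.20 RPKM) stood below Smg9. The exact binomial test called 0 of the 14, beside 4.48% of all genes tested, and the median log2 ratio was 0.00.

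**Figure D4:**
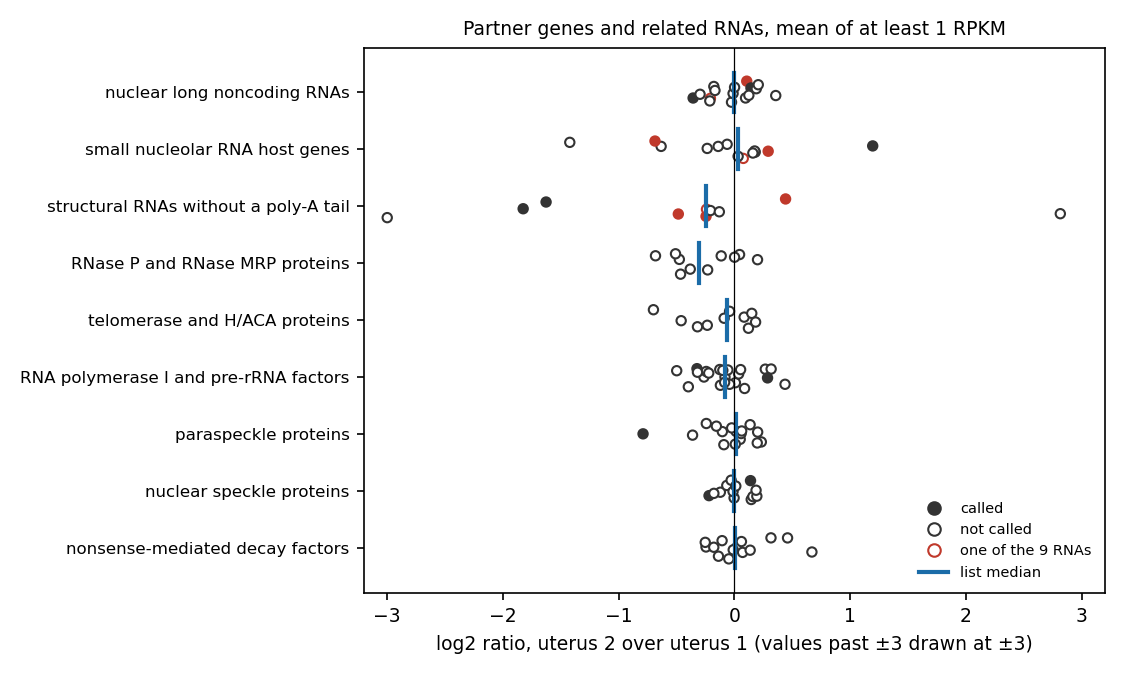
Log2 ratio of RPKM, uterus 2 over uterus 1, for the genes whose mean reached 1 RPKM in 9 lists of related RNAs and partner proteins, with 1 point per gene, genes called by the exact binomial test marked, and Bc1 drawn at the edge of the axis. Called genes lie on both sides of 0 in 5 of the lists, and 2 of the 3 lists of RNAs hold points beyond −1 and beyond 1.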

How the data were processed

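RNA from the whole uterus of 2 mice was sequenced, 1 library each, in 1 group. The authors normalized each gene to RPKM, per the labels' design text; TopHat, edgeR and mm9 appear in the submitters' processing notes, while the annotation release, the use of strand and the treatment of multiply mapped reads are not given in the sources used here. Deposited coordinates were matched to NCBIM37 and counted from 1. The 9 genes and all lists were chosen with earlier results of these data known.

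RPKM multiplied by transcript length and by the library's scaling total (3834174 and 4256101, rounded) gave whole reads for 100% of the 316 and 321 single-exon values above 0 checked, within a relative tolerance of 1e-06. Another 6310 genes had no annotated length that matched, and their reads were set to the smallest whole numbers. Reads were compared with SciPy 1.17.1's exact binomial test, and, as PCR duplicates are not separate molecules, its intervals describe counting error alone. The p-values measure the spread of counting, not of animals. The procedure was tested on simulated data. Genome copies were searched with BLAST 2.17.0 and sequences were read from NCBIM37 with Python 3.11.15.

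Named genes were the 9 RNAs, genes ranked next to them, small nucleolar RNAs inside them, back-to-back neighbours, and the highest, lowest and called genes of each list; Scarna2, Rnu11, Rnu73b, Rab30, Sfpq, Nono and Rprl3 were named after their values were seen. Some genes that this rule names are not reported here. Alternatives covered the unit, scaling, pseudocount, filters, smallest reads and leaving out a library. TMM scaling was computed directly rather than with edgeR.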

Additional observations from a re-analysis of the deposited data

How the results depend on the processing

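No direction of the 9 RNAs reversed under the alternatives run (leaving out a library gives no ratio). Rescaling RPKM to TPM raised every level while keeping the order: Rmrp 56548, Rpph1 37947, Malat1 8497 (8496.5), Rn45s 6382, Snhg1 226, Neat1 135, Gas5 114, Snhg8 67.5 and Terc 22.9. On that scale the RNAs with a poly-A signal summed to 9039 and those without to 100900, and the list medians were 28.0 (nuclear long noncoding RNAs), 49.7 (host genes), 369 (structural RNAs), 29.4 (RNase P and MRP proteins), 27.5 (telomerase), 68.5 (RNA polymerase I), 98.6 (paraspeckles), 178 (speckles) and 46.9 (nonsense-mediated decay). The structural list had a median of 253 RPKM with its genes at 0 left out, and of 89.1 without uterus 1 and 223 without uterus 2, against 156. The rank of Snhg8 was 3464 without uterus 1 and 1861 without uterus 2, against 2484. Gas5 reached 195 RPKM on its median annotated length, an alternative chosen after seeing the data. Without Rn45s, the RNAs lacking a signal summed to 39949 RPKM and took 1.22% of reads. At the smallest possible reads, the RNAs with a signal took 2.80% of reads over both uteri and those without took 3.02%, against 2.65% and 2.84%. The count of genes at least 2-fold apart was 153 with a pseudocount of 1 RPKM and 48 at a mean of 10 RPKM or more, against 355. Under median ratio scaling the Gas5 ratio was 0.28 with an adjusted p of 0.0507 in the exact binomial test (0.0376 to 0.0507 over all settings), so 5 of the 9 RNAs were called instead of 6; the cause was not tested. No paired analysis was possible because both libraries belong to a single group. Leaving out a library leaves no comparison between the uteri.

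Depth limits Terc and Snhg8 most. With 2 animals and 1 group, no spread between animals can be told apart from library preparation, and the called differences say only that these 2 libraries differ beyond counting.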

Other observations

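Rpph1 has 2 partial copies elsewhere in the genome, each matching 208 of its bases. Rprl3, an RNase P RNA-like gene whose match is 94.2% identical, had 820 RPKM in uterus 1 and 329 RPKM in uterus 2, from 745 and 332 reads. Its log2 ratio was −1.32 with an adjusted p of 5.0e-44 in the exact binomial test, the opposite direction to Rpph1, which was 0.44. Rprl2, with a match of 93.3% identity, was listed at 0 in both uteri. Reads shared between Rpph1 and these copies are uncertain. Malat1 had 79019 other matches of at least 100 bases, the longest of 177, Snhg1 had 123, the longest of 182, and Gas5 had 1 of 122. How the authors treated reads with several matches is not given in the sources used here. Neat1, Snhg8, Rmrp and Terc had no other match of that length at 90% identity.

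By mean level the genes ranked beside the noncoding RNAs were of many kinds. Rpl41, a ribosomal protein gene at 2087 ± 60.5 RPKM, followed Rn45s. Errfi1 ranked directly above Neat1. Gas5 lay between Kpna2 and Smo, the Hedgehog signal transducer, Snhg8 between Atraid and Pcmtd1, and Terc between Zfp931 and the DNA repair gene Apex1.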
